A study of Canis lupus familiaris with 31 samples.

Results

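Toll-like receptors 1 to 9 and the adaptor MYD88 were looked up by gene symbol in the table of whole-blood gene counts. Of the 10 genes sought, 9 were matched among 32704 rows, of which 18601 carried a symbol. These were 8 of the 9 receptors and MYD88, while TLR5 was not analysed here. All 9 passed the filter on low counts that left 13918 genes for testing.

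Whole-blood RNA was sequenced from 31 Miniature Schnauzers, 1 library per dog, all older dogs by the study's recruitment rule. The 13 cases (5 females, 8 males) had naturally occurring HTG, a raised fasting level of serum triglycerides, and the 18 controls (8 females, 10 males) had normal triglycerides. No dog received an experimental treatment, the disorder was not induced, and nearly all dogs had been neutered, so the groups differ by diagnosis and by whatever goes with it. The comparison asks which genes differ in circulating blood cells of dogs with spontaneous HTG.

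Toll-like receptors recognize conserved molecules of microbes and of damaged tissue and are carried mainly by phagocytes, dendritic cells and B cells. TLR1, TLR2, TLR4 and TLR6 sit at the cell surface and bind lipoproteins or lipopolysaccharide, whereas TLR3, TLR7, TLR8 and TLR9 sit in endosomes and bind nucleic acids. MYD88 passes the signal of all of them except TLR3 to the IRAK kinases and on to NF-κB, which turns on cytokine genes.

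Total counts ranged from 14524659 to 41533599 per dog. A pilot set of libraries was prepared earlier than the rest, but the labels do not say which dogs these were. On the mean level of 363 small non-coding RNA rows, 10 dogs (5 cases, 5 controls) lay at or above 1.69 log2 CPM (counts scaled to the size of the library) and the other 21 (8 cases, 13 controls) at or below 1.42. Between these high and low sides, 7.57% of all genes tested were called different (1053 of 13918, edgeR adjusted p at most 0.05), and none of the 9 genes of interest was. The genes tested include the 363 rows that defined the sides, and the share without them was not computed. As a description of the tissue, markers of neutrophils, monocytes, B cells, T cells, cytotoxic cells, platelets, erythroid cells and eosinophils or basophils were all detected, with no marker in the table at 0 in every dog. A single count in 1 dog was enough for this. Control 09 had the highest TLR1, TLR4, TLR6 and TLR8 of the 31 dogs.

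None of the 9 genes was called different between cases and controls, and the ranges of the groups overlapped for each. Among all genes tested, 0.0359% (5 of 13918) passed an adjusted p of 0.05 in edgeR's quasi-likelihood test, and 9.81% had an unadjusted p under 0.05. The 9 genes reached neither threshold, with unadjusted p from 0.354 to 0.896 and adjusted p from 0.807 to 0.980. DESeq2 and limma-voom also called none, and in neither did a member have an unadjusted p under 0.05. The log2 fold change was above 0 for 7 genes and below 0 for 2, where 54.5% of all genes tested lay below 0, with a median of 0.043 beside -0.016 over all genes tested. These counts moved with the dogs in the fit, to 9 above 0 without control 09, 3 of 9 on the low side of the split and 3 of 9 among the 26 dogs numbered 1 to 13. Across the genes, 95% intervals (1.96 standard errors each way) of the ratio of cases to controls ended no lower than 0.772 and no higher than 1.64. In bulk blood, fewer cells of a type and less RNA per cell cannot be told apart.

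Among the surface receptors, TLR1 (ENSCAFG00000024010), which pairs with TLR2 to bind triacylated lipopeptides, ranged from 25.0 to 40.6 CPM in cases with a median of 32.7, and from 25.0 to 42.8 CPM in controls with a median of 30.8. The ranges of the groups overlapped almost completely. The log2 fold change was 0.013 (SE 0.086, adjusted p = 0.975), and the interval of the ratio, 0.898 to 1.13, was the narrowest of the 9.

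TLR2 (ENSCAFG00000008351), the shared partner in lipoprotein binding, had 111 CPM in the lowest case, 147 in the median and 189 in the highest, against 91.8, 135 and 196 CPM in controls. The ranges overlapped, and the lowest and the highest dog were both controls. TLR2 had the smallest p of the 9 genes, with a log2 fold change of 0.10 (SE 0.11, unadjusted p = 0.354, adjusted p = 0.807) and a ratio interval of 0.926 to 1.24.

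TLR6 (ENSCAFG00000016172), which pairs with TLR2 for diacylated lipopeptides, ranged from 21.1 to 37.7 CPM in cases (median 30.3) and from 22.3 to 42.9 CPM in controls (median 29.2). Case values lay within or just under the control range. A log2 fold change of -0.013 (SE 0.099, adjusted p = 0.980) with a ratio interval of 0.866 to 1.13 was found, and it became 0.022 without control 09. TLR1 and TLR6 are close paralogs, so reads of one may have been counted for the other.

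TLR4 (ENSCAFG00000003518), the lipopolysaccharide receptor, had 232, 301 and 413 CPM in the lowest, median and highest case and 199, 305 and 817 CPM in the controls. Apart from the highest control, the dogs of both groups covered a similar range. That dog was control 09, and the next highest dog, control 13, had 473 CPM. The mean was 319 ± 57.6 CPM (SD, n = 13) in cases and 333 ± 145 CPM (SD, n = 18) in controls, or 305 ± 82.5 CPM in controls without control 09. The log2 fold change of -0.062 (SE 0.16, adjusted p = 0.935) turned to 0.068 (adjusted p = 0.892) when control 09 was left out, so these data give TLR4 no direction.

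Among the endosomal receptors, TLR3 (ENSCAFG00000007406), which binds double-stranded RNA and signals through TICAM1, was close to the limit of detection. Its counts ran from 5 to 58 in cases and from 1 to 79 in controls. Cases lay between 0.327 and 3.11 CPM (median 1.64) and controls between 0.126 and 2.51 CPM (median 1.41). At this depth the ratio of cases to controls was known only to lie between 0.793 and 1.64 (log2 fold change 0.19, SE 0.27, adjusted p = 0.866), the widest interval of the 9.

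TLR7 (ENSCAFG00000011698), a receptor for single-stranded RNA, had 6.46, 8.39 and 11.3 CPM in the lowest, median and highest case and 3.40, 7.78 and 17.7 CPM in the controls. All cases lay inside the control range. Between the groups, the log2 fold change was 0.082 (SE 0.17, adjusted p = 0.918), with a ratio interval of 0.836 to 1.34. Among dogs of the high side it was 0.50 (SE 0.27, n = 5 and 5) and among those of the low side -0.075 (SE 0.21, n = 8 and 13), and the test of that difference gave 0.58 (SE 0.36, edgeR unadjusted p = 0.120, adjusted p = 0.970).

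TLR8 (ENSCAFG00000023498), the other single-stranded RNA receptor, is the direct neighbour of TLR7 on chromosome X among protein-coding genes of the RefSeq table for the assembly UU_Cfam_GSD_1.0. It ranged from 59.6 to 102 CPM in cases (median 76.4) and from 40.6 to 149 CPM in controls (median 75.5). As for TLR7, the cases sat inside the control range. The log2 fold change was 0.043 (SE 0.13, adjusted p = 0.943), with a ratio interval of 0.865 to 1.23.

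TLR9 (ENSCAFG00000023201), which binds unmethylated CpG DNA, had 7.38, 9.98 and 17.9 CPM in the lowest, median and highest case and 6.68, 9.62 and 16.0 CPM in the controls. The groups overlapped throughout. TLR9's log2 fold change was 0.034 (SE 0.13, adjusted p = 0.956), with a ratio interval of 0.857 to 1.22.

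The adaptor MYD88 (ENSCAFG00000004966) ranged from 181 to 248 CPM in cases (median 216) and from 137 to 271 CPM in controls (median 203). Both the lowest and the highest dog were controls. MYD88 had a log2 fold change of 0.067 (SE 0.096, adjusted p = 0.866) and a ratio interval of 0.920 to 1.19.

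**Figure D1:**
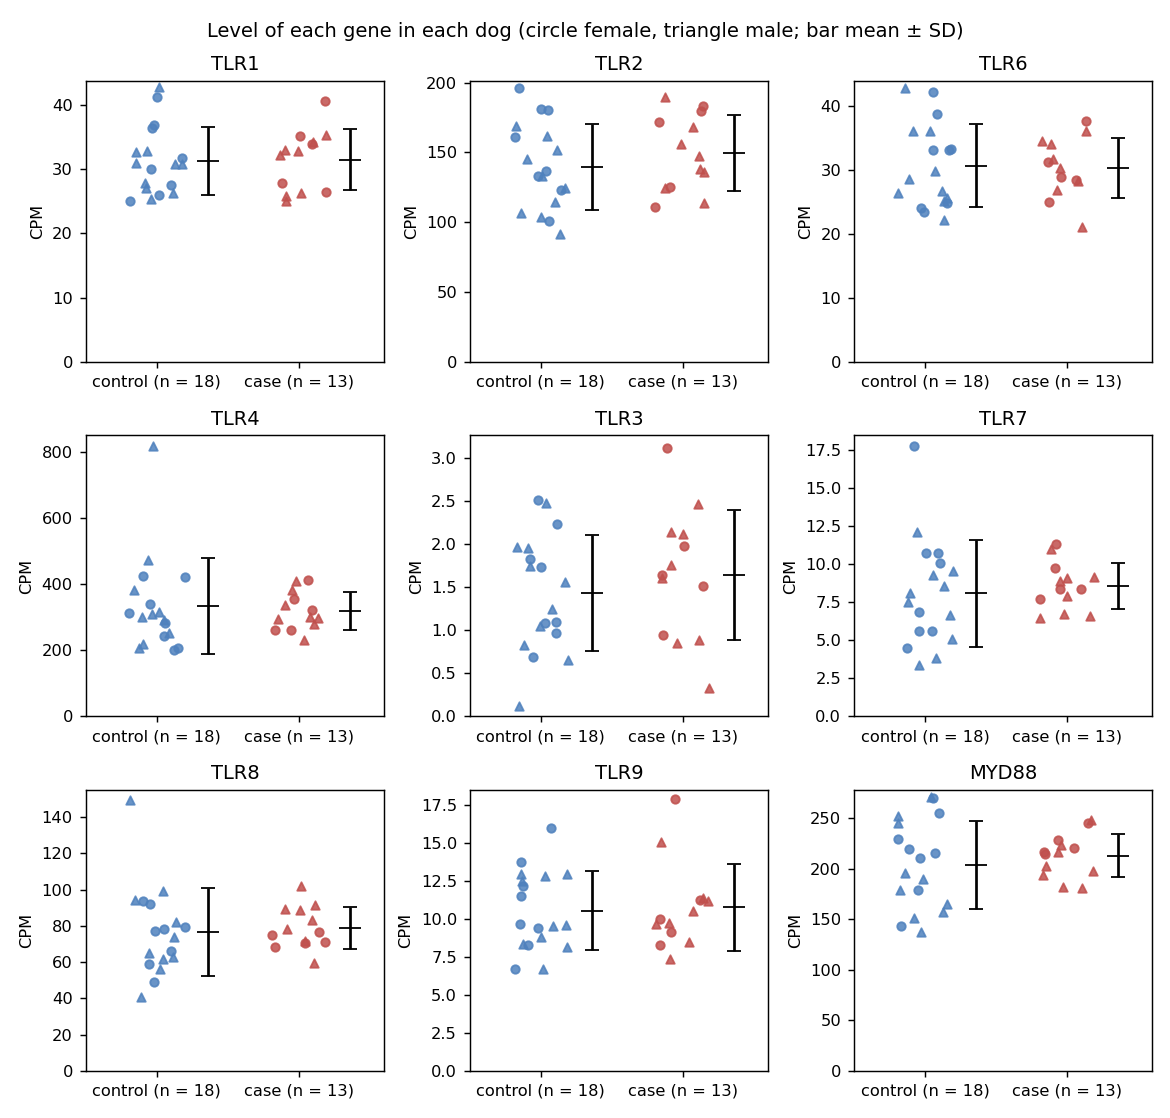
Level of each gene in CPM (y axis, from 0) in every dog, with controls on the left and cases on the right of each panel, circles for females, triangles for males, and bars for the mean ± SD. The groups overlap in all 9 panels, and the single TLR4 point at 817 CPM is control 09.

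As a description of the spread over dogs, the ratio of the highest to the lowest dog was 1.71 for TLR1, 1.98 for MYD88, 2.04 for TLR6, 2.13 for TLR2, 2.68 for TLR9, 3.68 for TLR8, 4.10 for TLR4, 5.21 for TLR7 and 24.7 for TLR3. For TLR3 this ratio rests on a single count in control 03. Without control 09 it was 2.38 for TLR4 and 2.51 for TLR8. The SD of log2 CPM over the 31 dogs was 0.23 for TLR1, larger than that of 21.8% of the genes tested, and 0.49 for TLR7, larger than that of 65.3%. As a description with no test, the SD of log2 CPM was larger in controls than in cases for each gene, by as little as 0.24 against 0.23 for TLR1. The largest differences were those of TLR7 (0.60 against 0.26), TLR4 (0.51 against 0.27), TLR8 (0.44 against 0.21) and MYD88 (0.32 against 0.15). The share of all genes with a larger SD in controls was not computed. Without control 09 the SD in controls was 0.57 for TLR7, 0.39 for TLR4, 0.36 for TLR8 and 0.32 for MYD88, and for TLR1 it was 0.21, below that of cases.

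The labels also give the sex of each dog, and TLR7 and TLR8 lie on chromosome X. With group held in the fit, none of the 9 genes was called different between females and males, where 0.122% of genes tested (17 of 13918) were and 4.89% had an unadjusted p under 0.05. TLR7 had 4.50, 8.39 and 17.7 CPM in the lowest, median and highest of 13 females and 3.40, 7.98 and 12.1 CPM in 18 males. Females were not set apart from males. The log2 fold change of females to males was 0.21 (SE 0.17, edgeR adjusted p = 0.959), with a ratio interval of 0.919 to 1.46.

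TLR8 had 49.1, 74.9 and 93.5 CPM in the lowest, median and highest female and 40.6, 80.2 and 149 CPM in the males. Its log2 fold change was -0.14 (SE 0.13), with a ratio interval of 0.763 to 1.08. Over the 9 genes, unadjusted p for sex ran from 0.164 to 0.731 and adjusted p from 0.959 to 0.988. The smallest belonged to TLR2, with a log2 fold change of 0.15 (SE 0.11) in females relative to males.

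The test of whether the difference between cases and controls differed between the sexes called none of the 9 genes. No gene among the 13918 passed the adjusted threshold for that interaction in edgeR, and 3.93% had an unadjusted p under 0.05. TLR4 had the smallest interaction p of the 9, with a log2 fold change of cases to controls of 0.095 (SE 0.25) in females and -0.18 (SE 0.21) in males and a difference of 0.27 (SE 0.33, unadjusted p = 0.413). That difference was 0.035 (SE 0.26) without control 09, a male.

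**Figure D2:**
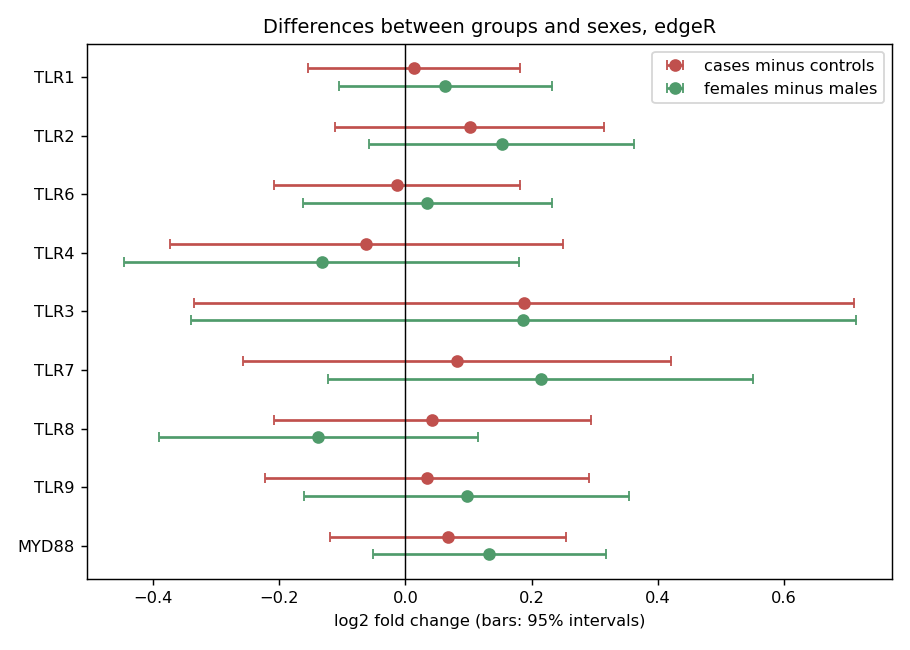
Log2 fold change (x axis) of each gene for cases minus controls (red) and females minus males (green) from edgeR, with bars of 1.96 standard errors each way. Every bar crosses 0, and TLR3 has the widest bars.

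Over the 31 dogs, 6 of the genes had levels that moved together. For TLR1, TLR2, TLR4, TLR6, TLR8 and MYD88, all 15 pairs were positively correlated in log2 CPM, with Pearson's r from 0.465 to 0.743 and Spearman's rho from 0.469 to 0.742. All 15 passed an adjusted p of 0.05 for both coefficients (permutation tests with 100000 resamples, Benjamini-Hochberg over the 36 pairs of the 9 genes). In all, 20 of the 36 pairs passed on both. As a background over all 96848403 pairs of the 13918 genes tested, 3.53% had both coefficients at or above the lowest of these 15 pairs, and 8.07% were at least as strong, in either direction, as the weakest of the 20. The 6 genes were grouped after their correlations were seen, so their count is a description.

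The strongest pair was TLR2 with MYD88, with r = 0.743 and rho = 0.742 (permutation p = 1e-05 for both, the smallest these can give, adjusted p = 0.00018 and 0.00036). Leaving out the 2 dogs farthest from the TLR2 median gave r = 0.711. Within the sides of the split r was 0.799 in the 10 high dogs and 0.728 in the 21 low dogs, and the first did not pass the adjusted threshold (permutation adjusted p = 0.0972).

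TLR4 with TLR8 had r = 0.738 and rho = 0.698 (permutation adjusted p = 0.00018 and 0.00036). Without the 2 dogs farthest from the TLR4 median r was 0.599, and without control 09 it was 0.624 (permutation adjusted p = 0.00198). Within the sides, r was 0.572 over 10 dogs and 0.840 over 21 dogs. TLR1 with TLR2 had r = 0.707 and rho = 0.698, and TLR4 with TLR6 had r = 0.666 and rho = 0.650.

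Within the low side (21 dogs), 12 of the 36 pairs passed on both coefficients, all of them among the same 6 genes. Within the high side (10 dogs) none of the 15 pairs of those 6 genes passed, and the 1 pair that did was TLR2 with TLR9 (r = 0.928, rho = 0.939, permutation adjusted p = 0.00864 and 0.00684). The 15 pairs had positive r on both sides, from 0.495 to 0.840 on the low side and from 0.188 to 0.799 on the high side. Their rho ran from 0.478 to 0.748 on the low side and from -0.042 (TLR1 with TLR8) to 0.794 on the high side.

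TLR7 ran the other way from its chromosomal neighbour. TLR7 with TLR8 had r = -0.456 and rho = -0.445 (permutation adjusted p = 0.0199 and 0.0239), the only negative pair that passed. The relation rests in part on the farthest dogs, since r was -0.306 without the 2 farthest from the TLR7 median (permutation p = 0.107) and -0.326 without control 09 (permutation adjusted p = 0.124). Within the sides r was -0.295 in 10 dogs (permutation adjusted p = 0.527) and -0.550 in 21 dogs (permutation adjusted p = 0.0297). In those 21 dogs rho was -0.432 and did not pass (permutation adjusted p = 0.109), and r was -0.202 without the 2 farthest.

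TLR7 with TLR4 had r = -0.433, but rho = -0.326 did not pass (permutation adjusted p = 0.0251 and 0.112), and r was -0.272 without control 09 (permutation adjusted p = 0.201). TLR3 with TLR7 had r = 0.535 and rho = 0.376 (permutation adjusted p = 0.00509 and 0.0611), and the low counts of TLR3 limit what this pair can show. TLR9 passed on both coefficients with TLR1, TLR2, TLR4 and TLR6 and not with TLR7, TLR8 or MYD88.

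**Figure D3:**
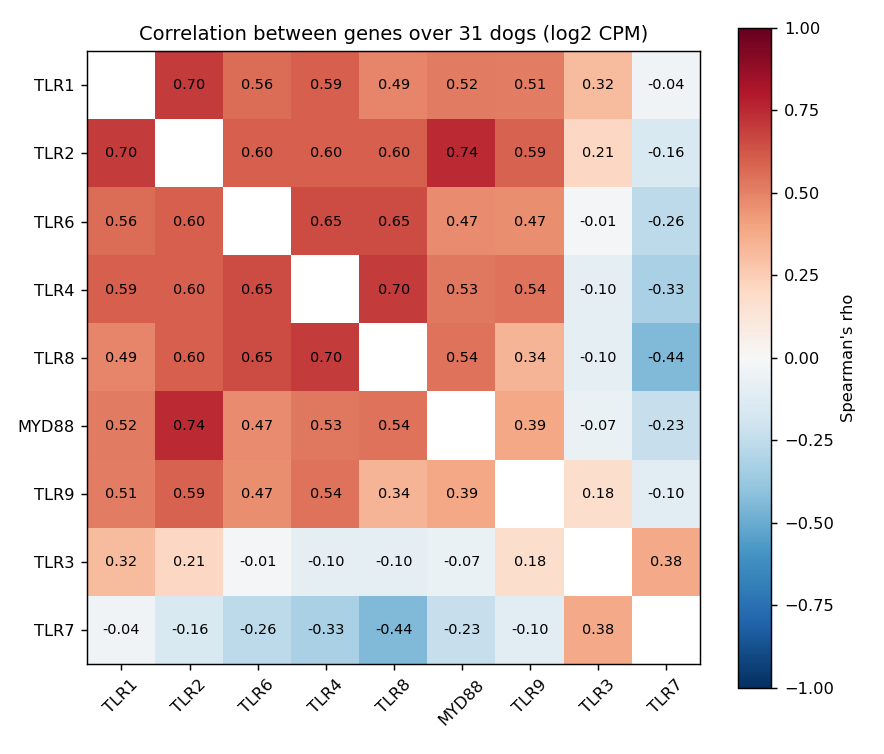
Spearman's rho between the log2 CPM of each pair of genes over 31 dogs, from -1 (blue) to 1 (red). TLR1, TLR2, TLR6, TLR4, TLR8 and MYD88 form a block with rho from 0.469 to 0.742, and TLR7 has rho of -0.445 with TLR8.

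Each gene was then set beside scores of 8 blood cell types, the mean log2 CPM of each type's marker genes, over the 31 dogs. Of the 72 relations, 11 passed an adjusted p of 0.05 for both coefficients. The share of all genes tested that relate as strongly to these scores was not computed, so this count is a description. TLR7 moved with the B cell score, with r = 0.788 and rho = 0.789 (permutation adjusted p = 0.00072 for both). Leaving out the 2 dogs with the farthest B cell scores gave r = 0.793. On the low side of the split r was 0.909 (permutation adjusted p = 0.00072, 21 dogs) and on the high side 0.607 (permutation adjusted p = 0.310, 10 dogs).

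The 6 genes that moved together all ran against the T cell score. Their rho ranged from -0.723 for TLR4 (r = -0.666, permutation adjusted p = 0.00198 for r and 0.0018 for rho) to -0.571 for TLR1 (r = -0.556). TLR4 against the T cell score had r = -0.705 on the high side (permutation adjusted p = 0.310) and -0.641 on the low side (permutation adjusted p = 0.0110). Without the 2 dogs with the farthest T cell scores, r for TLR4 was -0.677.

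With the neutrophil score, TLR2 had rho = 0.506 (r = 0.521), TLR8 rho = 0.572 (r = 0.669) and MYD88 rho = 0.599 (r = 0.628), and these 3 passed on both coefficients. TLR2 also passed with the erythroid score (rho = 0.628, r = 0.602). None of the 9 genes passed with the monocyte or platelet score. All genes of a dog share its library and its scaling, and the part that cell type shares had in these relations was not tested.

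**Figure D4:**
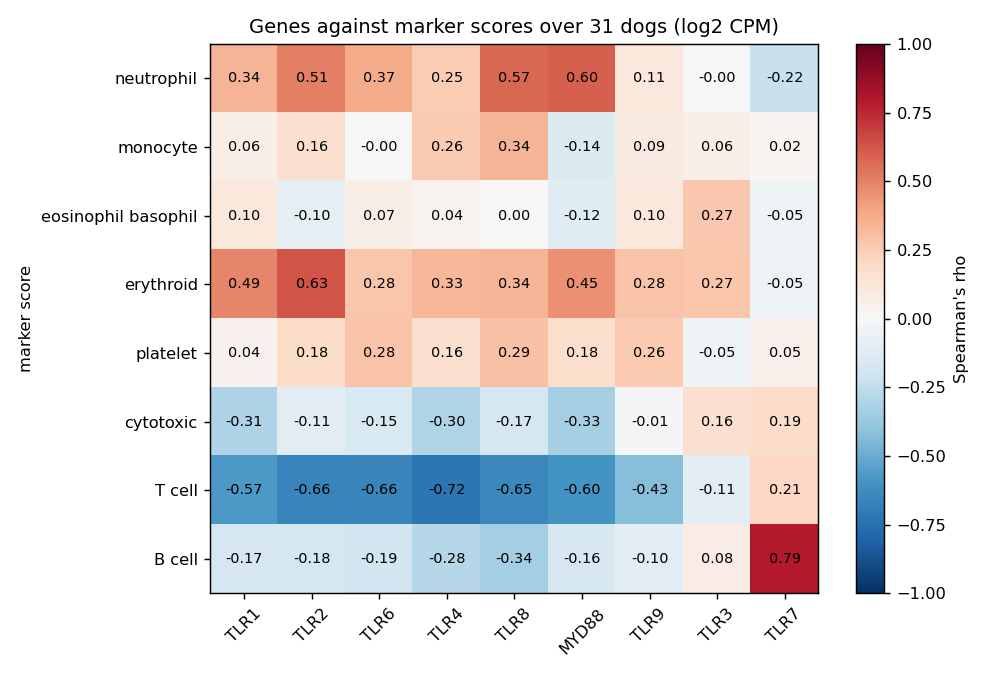
Spearman's rho over 31 dogs between each gene (columns) and the marker score of each blood cell type (rows), from -1 (blue) to 1 (red). The TLR7 column is highest with B cells (0.789), and the T cell row is negative for TLR1, TLR2, TLR4, TLR6, TLR8 and MYD88 (-0.723 for TLR4).

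**Figure D5:**
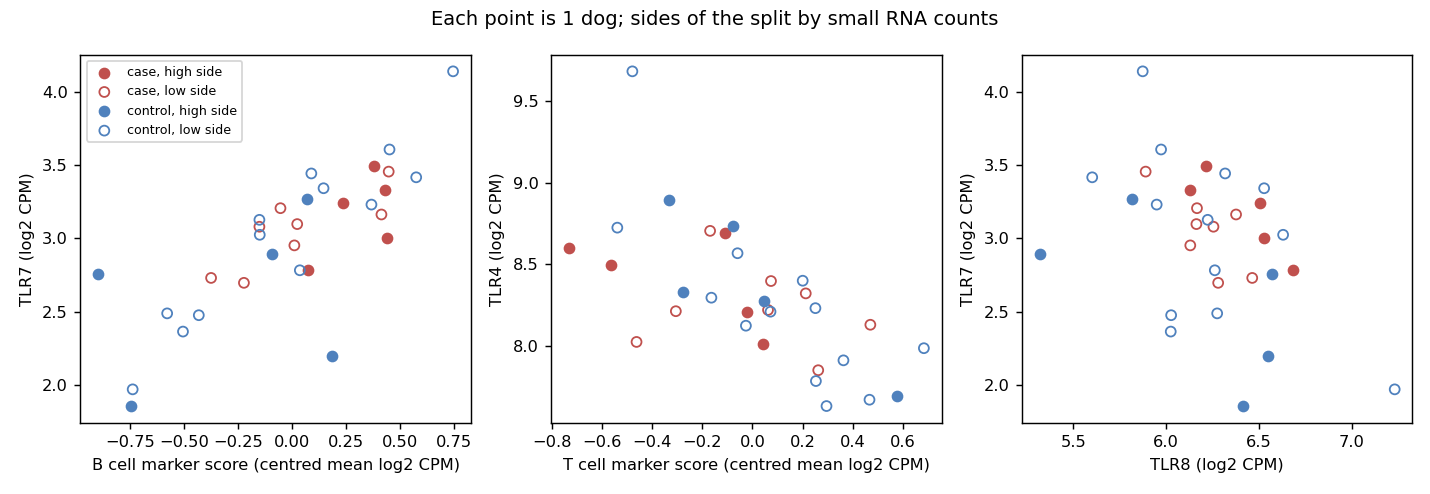
TLR7 against the B cell marker score (left), TLR4 against the T cell marker score (middle) and TLR7 against TLR8 (right), in log2 CPM, with 1 point per dog, red for cases, blue for controls, and filled points for the 10 dogs high in small RNA rows. The 6 dogs lowest in TLR7 and the 6 lowest in B cell score are controls, and the dog at the right end of the TLR8 axis is control 09.

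Genes with the most similar pattern over the 31 dogs are named by Spearman's rho alone, with no test. For TLR2 they were FCGR1A, the high-affinity receptor for IgG (rho 0.873), IGSF6 (0.867) and ARG2, a mitochondrial arginase (0.863). TLR1 lay nearest to the endoplasmic reticulum stress factor ATF6 (0.769), WTAP (0.762) and NAMPT, an enzyme of NAD salvage (0.735). For TLR6 they were RASA1 (0.832), ENSCAFG00000025063 (0.817) and C6H16orf72 (0.807).

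TLR4 lay nearest to PPP1R3B, which targets a phosphatase to glycogen (0.878), RGS2, a regulator of G protein signalling (0.875), and WFIKKN1 (0.874). For TLR8 they were the vacuolar proton pump subunit ATP6V0D1 (0.857), the activin receptor ACVR1B (0.840) and TFEB, a transcription factor for lysosomal genes (0.833). MYD88 lay nearest to STARD8 (0.892) and HIP1R (0.866).

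TLR7 stood apart from these with DLA-DOB, a class II histocompatibility gene of B cells (0.846), NRIP1 (0.794) and the lymphocyte receptor BTLA (0.781). TLR9 was nearest to NOTCH2 (0.752), SEMA7A (0.733) and P2RY13 (0.731). TLR3, with its low counts, had the weakest neighbours, SCAMP5 (0.681), PTPRO (0.646) and MIR29B1 (0.581).

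The other genes of the pathway showed no called difference between cases and controls either. Of 14 co-receptors, further adaptors and trafficking factors, 10 were tested, none had an unadjusted p under 0.05, and the median log2 fold change was 0.0018. This list holds TLR10, the direct neighbour of TLR1 in the RefSeq table, with 4.76 ± 1.02 CPM in cases and 4.99 ± 1.31 CPM in controls. TICAM2, CD14 and LBP were not analysed here, and CD36 fell under the filter.

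Of 22 kinases and transcription factors, 20 were tested and IRAK2 and IRF7 were not analysed here. Their median log2 fold change was 0.036. TAB3, which links TRAF6 to the kinase TAK1, had 37.6 ± 10.3 CPM in cases and 32.7 ± 3.61 CPM in controls (log2 fold change 0.21, SE 0.095, unadjusted p = 0.0369, edgeR adjusted p = 0.465). The medians were 34.1 and 33.3 CPM, case 01 was highest at 67.0 CPM, and without case 01 and control 03 the log2 fold change was 0.13 (unadjusted p = 0.0841). CHUK, a subunit of the IκB kinase, had 22.5 ± 1.98 CPM in cases and 24.3 ± 1.75 CPM in controls (log2 fold change -0.11, SE 0.049, unadjusted p = 0.0360, edgeR adjusted p = 0.461). Neither passed the adjusted threshold.

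All 13 negative regulators were tested, none had an unadjusted p under 0.05, and their median log2 fold change was -0.0044. Of 20 genes that NF-κB signalling induces, 15 were tested, with a median of 0.17, and IL6, IL10, IL12B, CXCL10 and CCL3 fell under the filter. Without the filter, CXCL10 had a log2 fold change of 1.03 (SE 0.48, unadjusted p = 0.0376, edgeR adjusted p = 0.403). IL1A, an alarm cytokine, had 0.654, 1.18 and 2.08 CPM in the lowest, median and highest case and 0.126, 0.795 and 1.57 CPM in the controls. The groups overlapped, and the log2 fold change of 0.73 (SE 0.25, unadjusted p = 0.00599) did not pass the adjusted threshold (edgeR adjusted p = 0.287). RELB, an NF-κB subunit, had 44.9 ± 7.68 CPM in cases and 38.9 ± 7.85 CPM in controls (log2 fold change 0.21, SE 0.098, unadjusted p = 0.0395, edgeR adjusted p = 0.477).

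Markers of blood cell types are given beside these genes. All 8 platelet markers tested were higher in cases at an unadjusted p under 0.05, where 5.04% of all genes tested were, and none passed the adjusted threshold in edgeR or limma-voom, while DESeq2 called 1, TUBB1 (adjusted p = 0.0380). Their summed level ran from 708 to 2159 CPM in cases and from 328 to 1458 CPM in controls. Summed neutrophil markers ran from 6247 to 11050 CPM in cases and from 4295 to 18549 CPM in controls, or to 10740 CPM without control 09. Of the 10 neutrophil markers, 2 (MMP9 and CAMP) were higher in cases at an unadjusted p under 0.05, with a median log2 fold change of 0.14 over the list. Without control 09 there were 5 (also S100A8, S100A12 and MMP8), with a median of 0.34. By limma-voom with all dogs, MMP8 was higher besides MMP9 and CAMP (unadjusted p = 0.00435). Monocyte markers had none of 9 tested at that level, with sums of 1996 to 4318 CPM in cases and 1531 to 4718 CPM in controls, or to 3696 CPM without control 09. Of the 7 erythroid markers tested none was at that level in edgeR, with a median log2 fold change of 0.63, while 3 were by limma-voom (ALAS2, KLF1 and EPB42) and 3 in edgeR without case 01 and control 03 (ALAS2, KLF1 and HBM). Erythroid sums were 887 to 18165 CPM in cases and 719 to 31739 CPM in controls, or to 5105 CPM without control 03. Of the 9 B cell markers 7 were above 0, with a median of 0.22 and 1 (BANK1) at that level, and sums of 204 to 346 CPM in cases and 152 to 412 CPM in controls. None of the 8 T cell markers was above 0, with a median of -0.16 and 1 (CD28) lower at that level, and sums of 292 to 723 CPM in cases and 344 to 830 CPM in controls. Cytotoxic markers had none of 7 at that level in edgeR and a median of 0.21. By limma-voom 1 was higher (KLRB1, list median 0.37), among dogs numbered 1 to 13 there were 2 (KLRB1 and GZMB), with the block by dog number 3 (also TBX21), and on the high side 2 (TBX21 and GZMB, list median 0.90). On the high side 4 of the 9 B cell markers and 3 of the 8 platelet markers were higher at that level, where 3.85% of all genes had such a p in either direction. That share was 11.2% by limma-voom, 10.9% without control 09 and 13.0% without case 01 and control 03. Among dogs numbered 1 to 13 it was 7.45%, and with the block by dog number 6.19%. Eosinophil and basophil markers had 1 of 4 (IL5RA, lower) and a median of -0.035. The part of these shifts in the values of the Toll-like receptors was not tested.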

How the data were processed

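Whole-blood RNA was sequenced from 13 cases and 18 controls after ribosomal RNA removal with a stranded total RNA kit, although the labels also call the molecule polyA RNA. The values are raw counts per gene that the authors deposited after FastQC, Trimmomatic and HISAT2 alignment to Dog10K_Boxer_Tasha (canFam6), counting a pair only when both mates mapped. The counter, its strand setting and the annotation are not given in the sources used here. Counts ranged from 14524659 to 41533599 per dog, and a gene at few counts, such as TLR3, carries large counting error.

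Groups and sex came from the labels. Counts were filtered by filterByExpr on group (13918 genes kept), normalized by TMM and tested with edgeR 4.0.16 quasi-likelihood tests in R 4.3.3, with Benjamini-Hochberg adjustment over all genes tested. CPM used TMM-scaled totals, and correlations used log2 CPM with a prior count of 2. Alternatives were DESeq2 1.42.0, limma-voom (limma 3.58.1), RLE and upper quartile scaling, other filters (no filter, or at least 10 counts in every dog), a covariate for sex or for the split by small RNA rows, dogs numbered 1 to 13 with and without a block by dog number, each side of the split alone, and leaving out control 09, case 01 with control 03, or the 20 genes with the highest totals. The study used its pilot batch as a covariate, which could not be done here because the labels do not name those dogs, so the split stood in for it. No 2 libraries were alike within sampling noise (lowest chi-square per degree of freedom 25.3 over 465 pairs). The fits were also run on simulated counts drawn independently for each gene and dog. The differences planted there were larger than those seen for the genes of interest, so power for small differences was not examined.

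The genes, lists and cell type markers were chosen with earlier results of these data known. The text names the 10 genes of interest, the pathway genes with an unadjusted p under 0.05 (at most 5 per list), the 3 most similar genes of each (1 of those of MYD88 is not reported here), and marker genes by list. TLR10 was named besides for its place next to TLR1, and CD180, CXCL8, DUSP1, NFKB2 and ATF3 after their values were seen, as was the unfiltered value of CXCL10. The markers NKG7, PF4, EPX and PRG2 were not analysed here. Of the 9 genes, 8 matched the RefSeq table (UU_Cfam_GSD_1.0) by symbol, and that table was used only for names and neighbours since its assembly differs from the files' build. No sequence was compared.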

Additional observations from a re-analysis of the deposited data

Results flagged for a closer look

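Dixon's outlier test was applied to the CPM of each of the 9 genes in the 4 groups of one diagnosis and sex, 36 groups in all, of which chance alone flags about 1 in 20. It marked 3 values. Control 09, 1 of 10 male controls, had 817 CPM of TLR4 while the other 9 lay between 207 and 473 CPM (gap over range 0.563, critical value 0.466). The same dog had 42.8 CPM of TLR1 beside 25.3 to 32.8 CPM in the others (gap over range 0.569). Control 11, 1 of 8 female controls, had 17.7 CPM of TLR7 beside 4.50 to 10.7 CPM (gap over range 0.529, critical value 0.526).

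Control 09 also had the highest TLR6 (42.9 CPM) and TLR8 (149 CPM) of all 31 dogs and the next to lowest TLR7 (3.81 CPM). It had the highest neutrophil score (1.57) and the lowest platelet (-1.43) and cytotoxic (-1.87) scores, as centred mean log2 CPM of the markers. Control 11 had the highest B cell score (0.744). The part of these scores in the marked values was not tested.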

How the results depend on the processing

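Between cases and controls, 0 of the 9 genes passed the adjusted threshold, and 0 had an unadjusted p under 0.05, under each of 16 alternatives (lowest adjusted p 0.699), except that TLR3 was not tested with at least 10 counts in every dog. The same held for sex under 14 and for the interaction under 11. The direction of 128 of 143 log2 fold changes between cases and controls stayed as reported. It turned on the low side of the split for TLR1 (-0.082), TLR7 (-0.075), TLR8 (-0.056) and TLR9 (-0.026), on the high side for TLR6 (0.10), under limma-voom for TLR4 (0.014), and without control 09, an alternative chosen after seeing the data, for TLR4 (0.068) and TLR6 (0.022). For sex it turned on the high side for TLR3 (-0.18) and TLR4 (0.023), on the low side for TLR9 (-0.0045) and without control 09 for TLR4 (0.0061). The cause was not tested.

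Pathway genes past the adjusted threshold were 0 throughout. With an unadjusted p under 0.05 there were 4 (beside 9.81% of all genes), against 1 (IL1A) without case 01 and control 03 (13.0% of all genes), 2 others (CD180 and DUSP1) on the high side (3.85%), 2 (IL1A and CHUK) among dogs numbered 1 to 13 (7.45%), and 5 (RELB, IL1A, TAB3, NFKB2 and ATF3) on the low side (10.6%). By limma-voom, CXCL8 (log2 fold change 0.83, unadjusted p = 0.0180) took the place of TAB3 (11.2% of all genes). Correlated pairs, of 36, fell from 20 to 12 on the low side and 1 (TLR2 with TLR9) on the high side, and marker relations, of 72, from 11 to 0 on the high side. These sides hold fewer dogs. Splitting at the largest gap in the share of counts in small RNA rows put 1 dog, control 03, rather than 10 on the high side. The same 10 dogs still had the highest shares, from 5.37% (case 05) to 11.1% (control 03). The highest share among the others was 4.34% (case 08). Over all genes tested, cases and controls differed in 5 by edgeR, 84 by DESeq2, 103 by DESeq2 with the split as covariate, 28 without case 01 and control 03, 1 among genes with at least 10 counts in every dog, and 0 by limma-voom, with the block, or on either side.

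Cases and controls share dog numbers, and same-numbered dogs are different animals whose deviations did not go together (correlation -0.44 to 0.26 over 13 pairs, 3 over 0.1, and 1 case closest to its own number). A replicate block by dog number also drops controls 14 to 18. With it, 0 of the 9 genes, 0 pathway genes and 0 of 13684 genes passed, and the log2 fold changes of TLR1 (-0.012), TLR8 (-0.013) and TLR9 (-0.043) turned. In the same 26 dogs without the block, a fit added after seeing the data, 0 also passed, and TLR1 (-0.017), TLR8 (-0.052), TLR9 (-0.039) and MYD88 (-0.0022) turned. Sequence features were not examined. TLR3 had the lowest counts of the genes of interest, and the unnamed pilot batch cannot be told apart from other differences between the sides.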
